A study of Mus musculus with 10 samples.

Results

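Interferon-stimulated and antigen presentation genes were examined in heart muscle cells of mice that carry Epac1-PLN, a fluorescent cAMP sensor built from a part of Epac1 and phospholamban. The group was defined by name as 37 genes induced by type I or type II interferon, including the immunoproteasome and MHC class I genes. All 37 were found by symbol in the deposited table of 38355 genes, and 35 passed the filter on low counts that left 12629 genes. Mx1 and Oas1a, at 0 to 5 and 2 to 15 counts per library, did not pass and are given as levels only.

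The libraries came from cardiomyocytes of adult FVB/N mice, 5 Epac1-PLN transgenic and 5 wildtype, isolated by Langendorff perfusion and labelled as untreated. Each animal gave 1 RNA sequencing library, and each genotype held 3 females and 2 males. Epac1-PLN replicates 2, 3 and 4 and wildtype replicates 3, 4 and 5 were the females. The sensor is described as cardiac specific, but the sources used here do not name its promoter. The labels do not say how pure the cell preparations were.

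Interferons are secreted proteins that warn cells of infection. Type I interferon acts through JAK kinases on a complex that includes STAT2 and IRF9 and binds the interferon-stimulated response element (ISRE). Type II interferon (interferon gamma) acts at the gamma-activated sequence (GAS) and through the factor IRF1. The genes they switch on block viruses, restrict intracellular microbes by GTPases, and load peptides from the proteasome onto MHC class I for T cells. Most cells, including cells of the heart, keep a low tonic level of these transcripts without infection.

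Library totals were 10632224 to 15959196 counts in Epac1-PLN cells and 13266303 to 20983754 counts in wildtype cells. Rapgef3, the gene for Epac1 that the transgene contains in part, stood at 1241 to 1741 CPM (counts scaled to library size with TMM factors) in Epac1-PLN libraries and 10.4 to 15.9 CPM in wildtype libraries. Cardiomyocyte markers summed to at least 106415 CPM in every library. Epac1-PLN replicate 4 correlated least with the rest (median Spearman rho 0.983, against 0.986 to 0.991 for the others). Epac1-PLN replicate 5 stood apart in the interferon genes themselves, as described below, so results are also given without these libraries. In bulk RNA, fewer cells of a type and less RNA per cell cannot be told apart.

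Of the 35 tested members 0 were called with genotype at an adjusted p under 0.05 by edgeR's quasi-likelihood test, against 0.641% of all tested genes, and DESeq2 and limma-voom called 0 as well. At an unadjusted p under 0.05, 1 member was higher and 1 lower in Epac1-PLN cells, against 6.77% and 5.4% of all tested genes. The median log2 fold change of the members was 0.06, with 22 above and 13 below 0, and that of all tested genes was 0.00. The direction rested on single libraries: without Epac1-PLN replicate 5 the median was -0.05 with 24 members below 0, and without replicate 4 it was -0.07 with 20 below 0. In 0 of the 35 members were the genotypes without overlap, against 1.5% of all tested genes higher and 1.24% lower in Epac1-PLN cells.

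Within a genotype, the members varied more than most genes. Their median biological coefficient of variation, the part of the spread that counting error does not cover, was 0.227 against 0.120 for all tested genes. It was 0.122 for the 11050 genes within the members' range of mean level. That range took in most of the 12629 tested genes, so members were not set against genes of closely similar level. The median SD of a member's log2 CPM was 0.54 over the Epac1-PLN libraries and 0.36 over the wildtype libraries, against 0.18 and 0.17 for all tested genes. These SDs pool females and males and so include the sex difference described below. The coefficient of variation instead comes from a model of sex plus genotype. The SD was larger in Epac1-PLN cells for 30 of 35 members, against 53.2% of all tested genes. Without Epac1-PLN replicate 5 the members' median SD there was 0.40, and without replicates 4 and 5 it was 0.31.

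**Figure D1:**
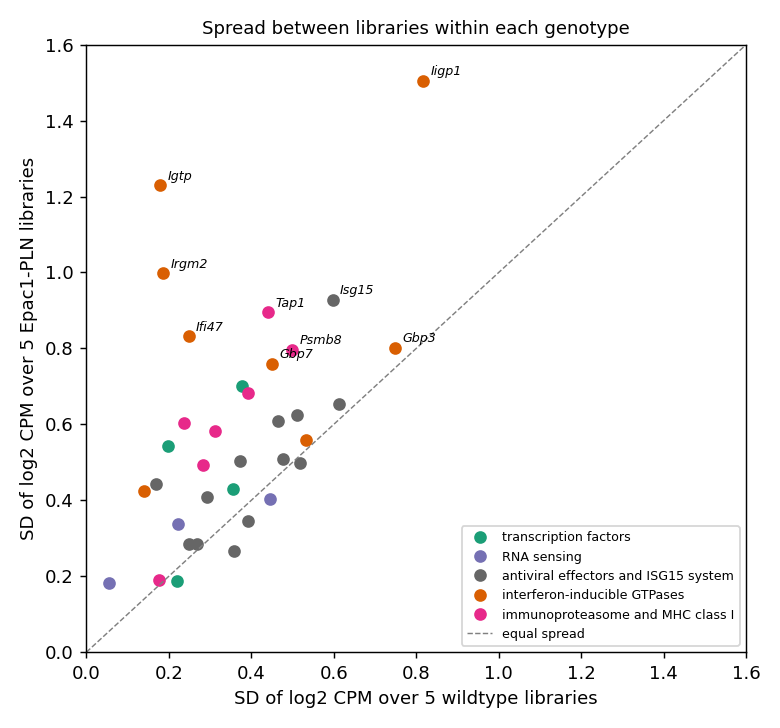
Each point is 1 tested member, with the SD of its log2 CPM over 5 Epac1-PLN libraries on the y axis and over 5 wildtype libraries on the x axis, coloured by role, and the dashed line marks equal spread. Of 35 points 30 lie above the line, with Iigp1 (1.51 and 0.82), Igtp (1.23 and 0.18) and Irgm2 (1.00 and 0.19) the highest.

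The spread was shared between members and fell on a few libraries. Epac1-PLN replicate 5 held the highest level of 18 of 35 members, wildtype replicate 2 of 10, Epac1-PLN replicate 4 of 6 and Epac1-PLN replicate 1 of 1. Among all tested genes these libraries were highest for 8.38%, 11.2%, 19.3% and 8.74%. Epac1-PLN replicate 2 held the lowest level of 19 of 35 members, against 8.61% of all tested genes, and Epac1-PLN replicate 3 of 7. The median deviation from the gene's median over the 10 libraries was 0.57 on the log2 scale in Epac1-PLN replicate 5, 0.21 in replicate 4, 0.04 in replicate 1, -0.26 in replicate 3 and -0.45 in replicate 2. In wildtype replicates 1 to 5 it was 0.22, 0.41, -0.23, -0.14 and -0.04. Of the libraries above 0.2, all but Epac1-PLN replicate 4 were male.

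**Figure D2:**
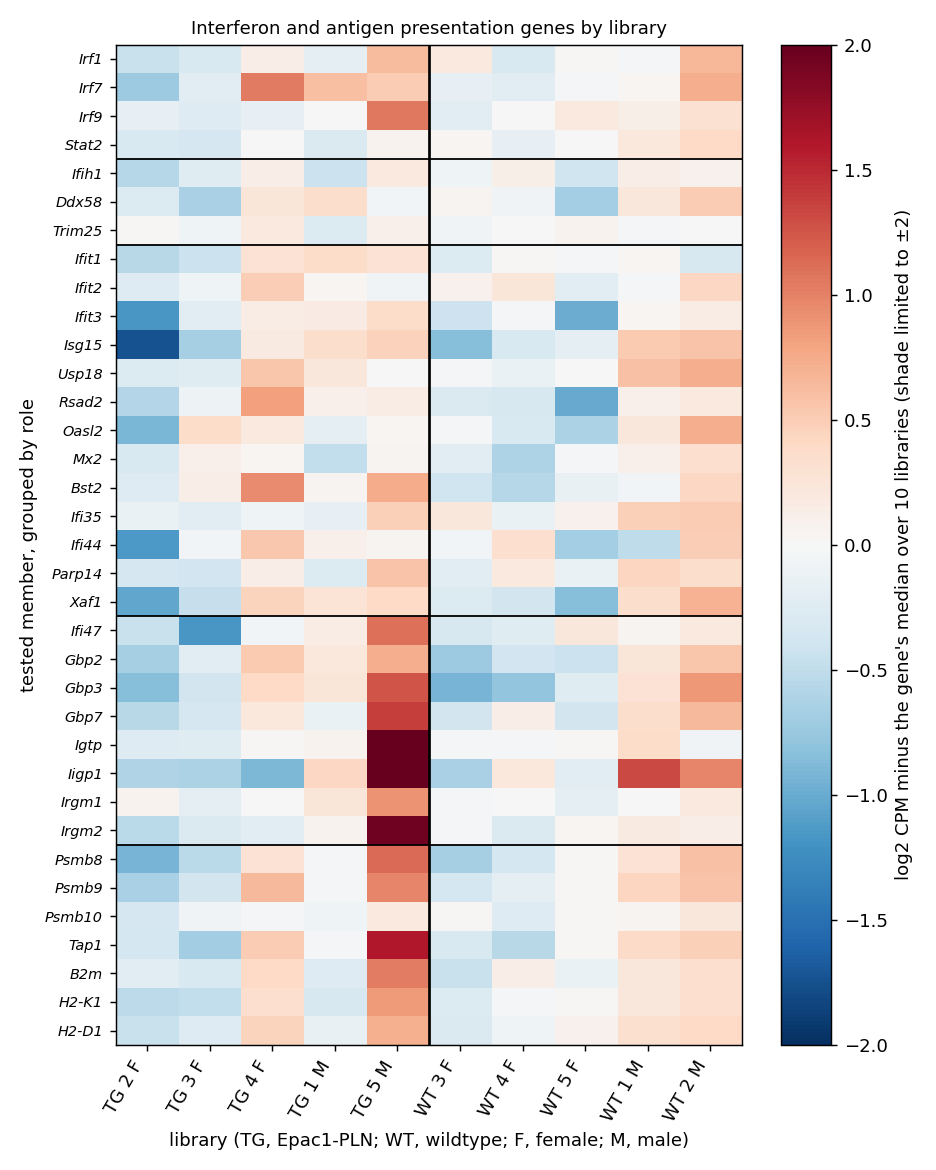
Rows are the 35 tested members grouped by role, columns are the 10 libraries with Epac1-PLN left of wildtype, and colour is log2 CPM minus the gene's median over all libraries, with the shade limited to 2 in either direction. Epac1-PLN replicate 5 is the highest library for all 8 GTPases, and Epac1-PLN replicate 2 is the lowest for 8 of 13 antiviral effectors.

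The interferon-inducible GTPases gave the largest library difference. Some of these proteins gather on the vacuoles of intracellular microbes, and interferon gamma is the best known inducer of the group in mice. Igtp, the gene for IRGM3 (ENSMUSG00000078853, chromosome 11, 58199556 to 58207591), stood at 17.0, 13.5, 13.6, 16.5 and 100.3 CPM in Epac1-PLN replicates 1 to 5, against 20.8, 15.4, 15.7, 15.9 and 16.4 CPM in wildtype replicates 1 to 5. Irgm2 (ENSMUSG00000069874, chromosome 11, 58199618 to 58222779) stood at 18.4, 11.96, 14.3, 15.1 and 67.2 CPM in Epac1-PLN mice, and at 19.8, 19.1, 16.9, 14.2 and 18.0 CPM in wildtype mice. Both genes were highest in 1 male Epac1-PLN library, and the other 9 libraries lay within 13.5 to 20.8 CPM for Igtp and 11.96 to 19.8 CPM for Irgm2.

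Iigp1, an effector GTPase of the same family, stood at 60.8, 30.1, 29.4, 24.3 and 306 CPM in Epac1-PLN replicates 1 to 5, against 114, 90.0, 29.1, 53.0 and 39.3 CPM in wildtype replicates 1 to 5. It was high in all 4 males and highest in Epac1-PLN replicate 5. Gbp7, a guanylate-binding protein gene, stood at 10.5, 7.86, 9.12, 13.4 and 30.2 CPM in Epac1-PLN mice, and at 14.8, 18.3, 8.95, 12.8 and 8.91 CPM in wildtype mice. Irgm1, which regulates the effector GTPases, stood at 26.5, 23.4, 19.4, 22.3 and 42.0 CPM in Epac1-PLN mice, and at 22.4, 25.6, 21.8, 22.3 and 19.5 CPM in wildtype mice. For each of these genes Epac1-PLN replicate 5 was the outermost library, and the other Epac1-PLN libraries lay within or below the wildtype range, apart from replicate 1 for Irgm1 at 26.5 CPM. Ifi47, another GTPase gene of this family, was at 0.514 to 1.48 CPM in Epac1-PLN replicates 1 to 4 and 3.00 CPM in replicate 5, against 1.04 to 1.56 CPM in wildtype libraries.

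Set against the median of the other 9 libraries, Epac1-PLN replicate 5 held at least 2-fold more of 11 of 35 members, against 1.01% of all tested genes. The ratios were 7.79 for Iigp1, 6.32 for Igtp, 3.99 for Irgm2, 3.14 for Tap1, 2.88 for Gbp7 and 2.88 for Gbp3. Iigp1 and Igtp ranked 8 and 10 among the 12629 genes by this ratio. The remaining 5 members past 2-fold were Ifi47, Psmb8, B2m, Irf9 and Psmb9, at 2.02 to 2.37. Epac1-PLN replicate 4 passed 2-fold for 2 members, Irf7 (2.16) and Bst2 (2.03), against 2.37% of all tested genes. Epac1-PLN replicate 2 held at most 0.5 times the median of the others for 6 members, against 1.34%. These ratios compare 1 library with the others and have no replicate.

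Igtp and Irgm2 are neighbours whose deposited coordinates overlap. The library kit does not mark strand and the counting settings, not given in the sources used here, could not be checked, so reads of the overlapping stretch may be shared or lost. Their promoters, from 250 bases before to 50 bases after the RefSeq start on GRCm38.p6, are shown because these 2 genes stood out together. Capitals mark matches to the GAS (TTCNNNGAA) and then the ISRE core (GAAA, any 2 bases, then GAAA), searched on both strands.
Igtp, chr11:58199306-58199605, plus strand: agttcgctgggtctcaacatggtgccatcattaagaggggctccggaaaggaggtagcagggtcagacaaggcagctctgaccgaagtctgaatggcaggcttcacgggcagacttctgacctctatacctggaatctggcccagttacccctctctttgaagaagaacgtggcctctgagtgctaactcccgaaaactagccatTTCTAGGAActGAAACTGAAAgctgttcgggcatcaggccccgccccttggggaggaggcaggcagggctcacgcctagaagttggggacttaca
Irgm2, chr11:58214727-58215026, plus strand: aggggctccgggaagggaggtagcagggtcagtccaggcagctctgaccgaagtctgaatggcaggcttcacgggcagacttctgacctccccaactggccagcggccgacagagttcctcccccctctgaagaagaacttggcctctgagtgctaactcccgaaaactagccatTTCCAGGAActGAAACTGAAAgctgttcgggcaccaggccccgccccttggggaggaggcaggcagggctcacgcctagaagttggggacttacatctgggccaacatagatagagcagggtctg
In both windows the GAS match starts 11 bases before the ISRE match, 45 and 75 bases upstream of the annotated start. The longest stretch that the windows share letter for letter is 61 bases and lies downstream of these matches. A match is a description of letters and not a shown binding site.

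The GTPase genes as a group were all on the higher side with genotype (8 of 8, median log2 fold change 0.27), with 0 called. This rested on Epac1-PLN replicate 5: without it 3 of 8 were on the higher side and the median was -0.16, and in females alone 3 of 8 and -0.07. Without wildtype replicate 1 the count was 6 of 8 and the median 0.16, and without Epac1-PLN replicate 4 they were 8 of 8 and 0.18. Of the 2 with the smallest genotype p, Irgm1 averaged 26.7 ± 8.90 CPM in Epac1-PLN mice, against 22.3 ± 2.19 CPM in wildtype mice (SD, n = 5 each), a log2 difference of 0.23 ± 0.13 (SE; adjusted p = 0.536, edgeR). Gbp2 averaged 15.1 ± 5.46 and 12.5 ± 4.83 CPM in Epac1-PLN and wildtype cells (0.32 ± 0.21, adjusted p = 0.604, edgeR). Without Epac1-PLN replicate 5 the fold change of Irgm1 was 0.07, and without replicate 4 that of Gbp2 was 0.09.

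**Figure D3:**
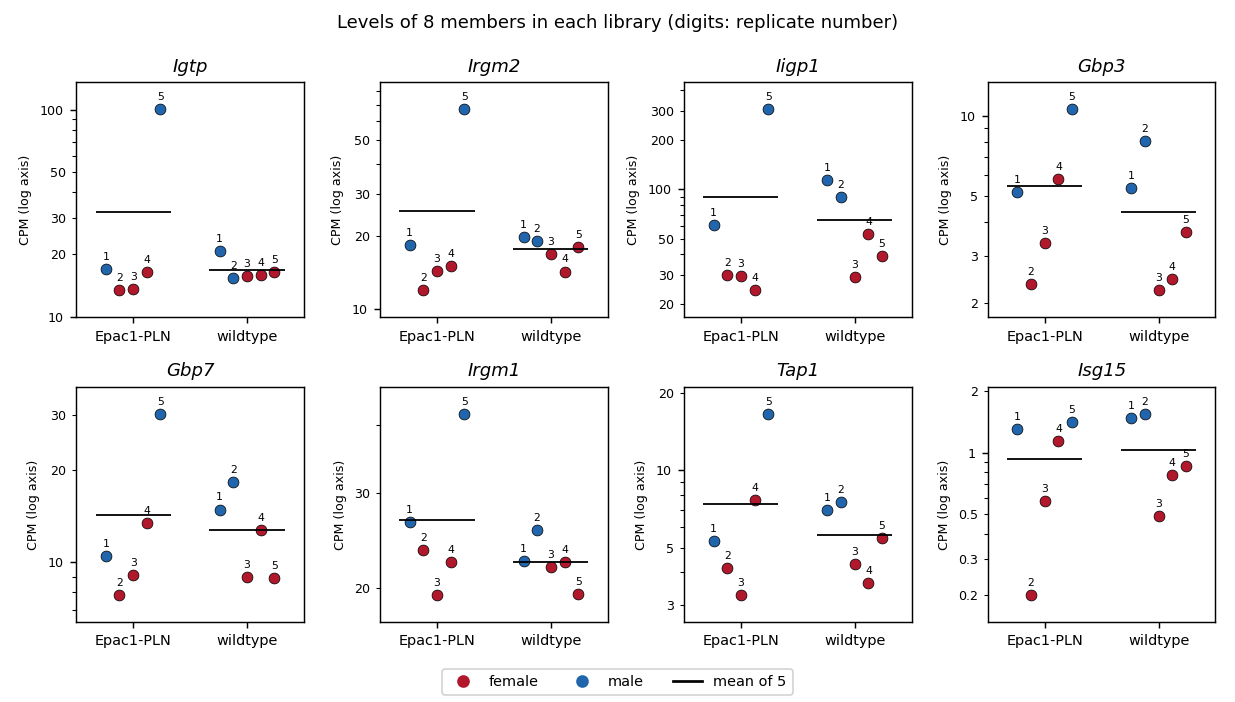
Each panel shows 1 member, with CPM on a log axis for the 5 Epac1-PLN libraries on the left and the 5 wildtype libraries on the right, coloured by sex and numbered by replicate, and a line at the mean of 5. Epac1-PLN replicate 5 stands at 100.3 CPM for Igtp and 67.2 CPM for Irgm2, above all other libraries, and for Isg15 all 4 males lie above all 6 females.

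Among the transcription factors, Irf9, the DNA-binding part of the type I complex, followed the same library. It stood at 9.46, 8.46, 7.90, 8.47 and 19.8 CPM in Epac1-PLN replicates 1 to 5, against 10.2, 11.8, 8.19, 9.46 and 10.9 CPM in wildtype replicates 1 to 5. Irf7, which amplifies type I interferon production, instead peaked in Epac1-PLN replicate 4 at 5.07 CPM, against 1.41 to 3.71 CPM in the other Epac1-PLN libraries and 2.07 to 4.06 CPM in wildtype libraries. Stat2 had the smallest genotype p of these factors, at 8.32 ± 1.13 CPM in Epac1-PLN mice, against 10.1 ± 1.58 CPM in wildtype mice (log2 fold change -0.27 ± 0.12 SE, unadjusted p = 0.0439, adjusted p = 0.389, edgeR). Irf7 came next, with a fold change of 0.29 ± 0.30 (adjusted p = 0.770, edgeR) that was -0.07 without Epac1-PLN replicate 4. Irf1, the main relay of interferon gamma, was at 8.598 to 18.3 CPM in Epac1-PLN mice, against 9.46 to 18.6 CPM in wildtype mice.

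The RNA sensing genes had the lowest median biological coefficient of variation of the role groups, 0.167. Ifih1 and Ddx58 encode the viral RNA receptors MDA5 and RIG-I, and Trim25 a ubiquitin ligase that acts with RIG-I. Ifih1 stood at 4.18 ± 1.01 CPM in Epac1-PLN mice, against 4.61 ± 0.682 CPM in wildtype mice (log2 fold change -0.14, 95% interval -0.52 to 0.25, adjusted p = 0.834, edgeR). Ddx58 stood at 6.95 ± 1.88 and 7.44 ± 2.14 CPM in Epac1-PLN and wildtype cells (-0.09, interval -0.50 to 0.32, adjusted p = 0.919, edgeR). Trim25 ranged over 14.8 to 20.7 CPM in Epac1-PLN libraries and 17.1 to 19.0 CPM in wildtype libraries, the smallest wildtype SD of any member at 0.06 on the log2 scale.

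Of the 13 tested antiviral effectors, Epac1-PLN replicate 5 was highest for 2, replicate 4 for 4 and wildtype replicate 2 for 6. Among all tested genes these libraries were highest for 8.38%, 19.3% and 11.2%. The effectors include the IFIT proteins, which bind viral RNA, the ubiquitin-like ISG15 with its protease USP18, and viperin, encoded by Rsad2. Rsad2 stood at 7.23, 4.43, 6.30, 12.004 and 7.49 CPM in Epac1-PLN replicates 1 to 5, against 7.28, 7.76, 5.51, 5.38 and 3.28 CPM in wildtype replicates 1 to 5. Bst2, which encodes the virus-tethering protein tetherin, stood at 6.68, 5.31, 7.002, 12.5 and 10.7 CPM in Epac1-PLN mice, and at 6.14, 8.53, 4.80, 4.27 and 5.78 CPM in wildtype mice. For both, Epac1-PLN replicate 4 was highest and the genotypes overlapped. Bst2 had the smallest genotype p of this group (log2 fold change 0.55 ± 0.24 SE, unadjusted p = 0.0413, adjusted p = 0.380, edgeR), and its fold change was 0.30 without Epac1-PLN replicate 4. Ifi35, next by p, was at 14.3 ± 3.20 CPM in Epac1-PLN mice, against 17.0 ± 3.11 CPM in wildtype mice (-0.24 ± 0.12, adjusted p = 0.438, edgeR).

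Several effectors were near the lower limit of these libraries. Ifit1 and Ifit3 had 13 to 29 and 6 to 23 counts per library, Isg15 3 to 31 and Usp18 12 to 33. Ifit2 was better covered, at 10.1 to 17.2 CPM in Epac1-PLN mice, against 10.4 to 16.3 CPM in wildtype mice. Mx2, a dynamin-like antiviral GTPase, was at 0.927 to 1.48 CPM in Epac1-PLN mice, against 0.842 to 1.75 CPM in wildtype mice. Its neighbour Mx1 had at most 0.333 CPM, and Oas1a, an enzyme that activates RNase L, at most 1.00 CPM. The other effectors ranged over 1.01 to 2.63 CPM for Oasl2, 0.470 to 1.801 CPM for Ifi44, 1.41 to 4.20 CPM for Xaf1 and 13.4 to 26.3 CPM for Parp14 in Epac1-PLN cells. In wildtype cells they ranged over 1.25 to 3.43, 0.703 to 1.75, 1.64 to 5.04 and 15.01 to 23.7 CPM.

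Epac1-PLN replicate 5 was highest for 6 of the 7 antigen presentation genes, against 8.38% of all tested genes. Replicate 4 lay above the median by 0.40 (log2, median of the 7). Psmb8, Psmb9 and Psmb10 encode the catalytic subunits of the immunoproteasome, Tap1 a chain of the peptide transporter, B2m the light chain of MHC class I, and H2-K1 and H2-D1 its heavy chains. Tap1 (ENSMUSG00000037321, chromosome 17, 34187553 to 34197225) stood at 5.29, 4.16, 3.28, 7.67 and 16.6 CPM in Epac1-PLN replicates 1 to 5, against 7.04, 7.55, 4.31, 3.63 and 5.47 CPM in wildtype replicates 1 to 5. B2m stood at 95.1, 96.8, 91.6, 150 and 232 CPM in Epac1-PLN mice, and at 133, 143, 83.4, 124 and 104 CPM in wildtype mice. H2-K1 stood at 26.9, 23.3, 23.7, 42.3 and 60.9 CPM in Epac1-PLN mice, and at 39.3, 42.5, 27.8, 32.9 and 34.2 CPM in wildtype mice. For B2m, Epac1-PLN replicates 4 and 5 were the highest libraries. For H2-K1, replicate 5 was highest, replicate 4 lay just under the highest wildtype library, and replicates 1 to 3 lay below all wildtype libraries. H2-D1 was at 93.7 to 174 CPM in Epac1-PLN replicates 1 to 4 and 210.1 CPM in replicate 5, against 104 to 168 CPM in wildtype libraries. Psmb8 ranged over 2.89 to 12.6 CPM in Epac1-PLN libraries and 3.49 to 8.53 CPM in wildtype libraries, and Psmb9 over 2.89 to 9.16 and 3.60 to 6.93 CPM.

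Psmb10 was the steadiest of the 7 genes, at 60.7 ± 8.01 CPM in Epac1-PLN mice, against 64.1 ± 7.60 CPM in wildtype mice (log2 fold change -0.08 ± 0.09 SE, adjusted p = 0.799, edgeR). Tap1 had the smallest genotype p of them (0.36 ± 0.31, adjusted p = 0.722, edgeR), with a fold change of -0.01 without Epac1-PLN replicate 5 and 0.19 without replicate 4. FVB mice carry another MHC haplotype than the C57BL/6J reference genome, and MHC class I genes have near-identical copies. The counts of H2-K1 and H2-D1, and of other members with close copies such as the Gbp, Ifit and Oas genes, are therefore uncertain in level. Psmb9 and Tap1 overlap each other in the deposited coordinates.

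With Epac1-PLN replicates 4 and 5 both left out, 32 of 35 members lay lower in the remaining Epac1-PLN libraries than in wildtype, with a median log2 fold change of -0.27, and 12 had an unadjusted p under 0.05, against 10.1% of all tested genes in that fit. H2-K1 was then called (adjusted p = 0.0424, edgeR), as were 0.511% of all tested genes. These libraries were left out for their position and their high levels, so this direction partly follows from the choice and is no independent result.

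By sex, 34 of 35 members pointed the same way. They lay lower in females, against 6058 of all 12629 tested genes. The median log2 fold change over all 35 was -0.45, against 0.01 for all tested genes. As described above, members moved together across libraries, so these 35 are not separate observations. By edgeR's quasi-likelihood test 0 were called at an adjusted p under 0.05, against 0.34% of all tested genes, and limma-voom called 0, while DESeq2 called Gbp2, Gbp3 and Iigp1, against 1.26% of all tested genes. Without Epac1-PLN replicate 5 the members' median was -0.28, with 34 of 35 still below 0. At an unadjusted p under 0.05, 18 members were lower in females and 0 higher, against 4.34% and 6.07% of all tested genes. For Isg15, Iigp1 and Irgm2 all 6 females lay below all 4 males, as did 0.974% of all tested genes, and 0 members were without overlap on the higher side, against 1.11%. The exception to the direction was Trim25 (0.08 ± 0.10 SE, adjusted p = 0.834, edgeR).

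Within each genotype, most members also lay lower in females. In Epac1-PLN cells 32 of 35 members had a lower mean log2 CPM in females, with a median difference of -0.50, against 47.6% of all tested genes. In wildtype cells the count was 33 of 35 with a median of -0.45, against 49.6% of all tested genes. In wildtype libraries alone Gbp2 and Gbp3 were called (adjusted p = 0.0215 and 0.0404, edgeR), against 1.06% of all tested genes. In Epac1-PLN libraries alone 0 were, against 0.00792% of all tested genes, and 7 had an unadjusted p under 0.05, against 2.72%. Among all 10 libraries, 0 members had a called genotype-by-sex term, as was the case for all tested genes (0%), with 1 member at an unadjusted p under 0.05, against 3.75% of all tested genes. DESeq2 and limma-voom called 0 members for this term.

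The GTPases had the largest median sex difference of the role groups, -0.91 on the log2 scale, and -0.45 without Epac1-PLN replicate 5. At an unadjusted p under 0.05, 7 of 8 were lower in females, against 4.34% of all tested genes. Epac1-PLN replicate 5, a male, was highest for all 8, so these are not separate observations. Gbp3 averaged 3.31 ± 1.35 CPM in 6 females and 7.30 ± 2.54 CPM in 4 males (log2 of female over male -1.16 ± 0.27 SE, adjusted p = 0.137, edgeR). Its levels were 2.35, 3.34 and 5.80 CPM in Epac1-PLN females, 5.19 and 10.58 CPM in Epac1-PLN males, 2.24, 2.46 and 3.67 CPM in wildtype females and 5.38 and 8.04 CPM in wildtype males. Only Epac1-PLN replicate 4, at 5.80 CPM, lay among the males. Iigp1 averaged 34.2 ± 10.4 CPM in females and 143 ± 111 CPM in males (-2.05 ± 0.47, adjusted p = 0.196, edgeR). Without Epac1-PLN replicate 5 its fold change was -1.27 and it was called, as were 0.729% of all tested genes. Gbp2 averaged 11.0 ± 4.08 CPM in females and 18.0 ± 3.15 CPM in males (-0.73 ± 0.21, adjusted p = 0.258, edgeR).

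Of the antiviral effectors, Isg15 averaged 0.673 ± 0.323 CPM in females and 1.43 ± 0.102 CPM in males (log2 of female over male -1.09 ± 0.33 SE, adjusted p = 0.282, edgeR). Its 4 male levels were close together, at 1.30 and 1.42 CPM in Epac1-PLN and 1.47 and 1.54 CPM in wildtype mice. Isg15 had few counts per library, as given above, so this closeness and the lack of overlap between the sexes carry counting error. Xaf1, a gene for a pro-apoptotic factor, and Ifi35 had fold changes of -0.82 ± 0.26 and -0.39 ± 0.12 on the log2 scale (adjusted p = 0.300 and 0.292, edgeR). Among antigen presentation genes, Psmb8 averaged 4.55 ± 1.51 CPM in females and 8.40 ± 3.03 CPM in males (-0.89 ± 0.27, adjusted p = 0.289, edgeR). Tap1 and Psmb9 had fold changes of -0.92 ± 0.31 and -0.64 ± 0.25 (adjusted p = 0.342 and 0.408, edgeR). That of Tap1 was -0.50 without Epac1-PLN replicate 5.

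All 4 transcription factors and 2 of 3 RNA sensing genes lay lower in females. Irf9, Irf1 and Stat2 had female over male log2 fold changes of -0.52 ± 0.19, -0.42 ± 0.19 and -0.24 ± 0.12 (SE), with adjusted p-values of 0.375 to 0.518 by edgeR. Without Epac1-PLN replicate 5 they were -0.21 for Irf9 and -0.25 for Irf1. Ddx58 averaged 6.23 ± 1.63 CPM in females and 8.63 ± 1.42 CPM in males (-0.46 ± 0.19, adjusted p = 0.424, edgeR), and Ifih1 had -0.17 ± 0.18 (adjusted p = 0.785, edgeR), or -0.08 without Epac1-PLN replicate 5. Leaving out Epac1-PLN replicate 4, the high female, called Gbp2, Gbp3 and Xaf1 as lower in females, against 0.638% of all tested genes. Without both replicates 4 and 5, 7 members were called, against 2.59%.

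**Figure D4:**
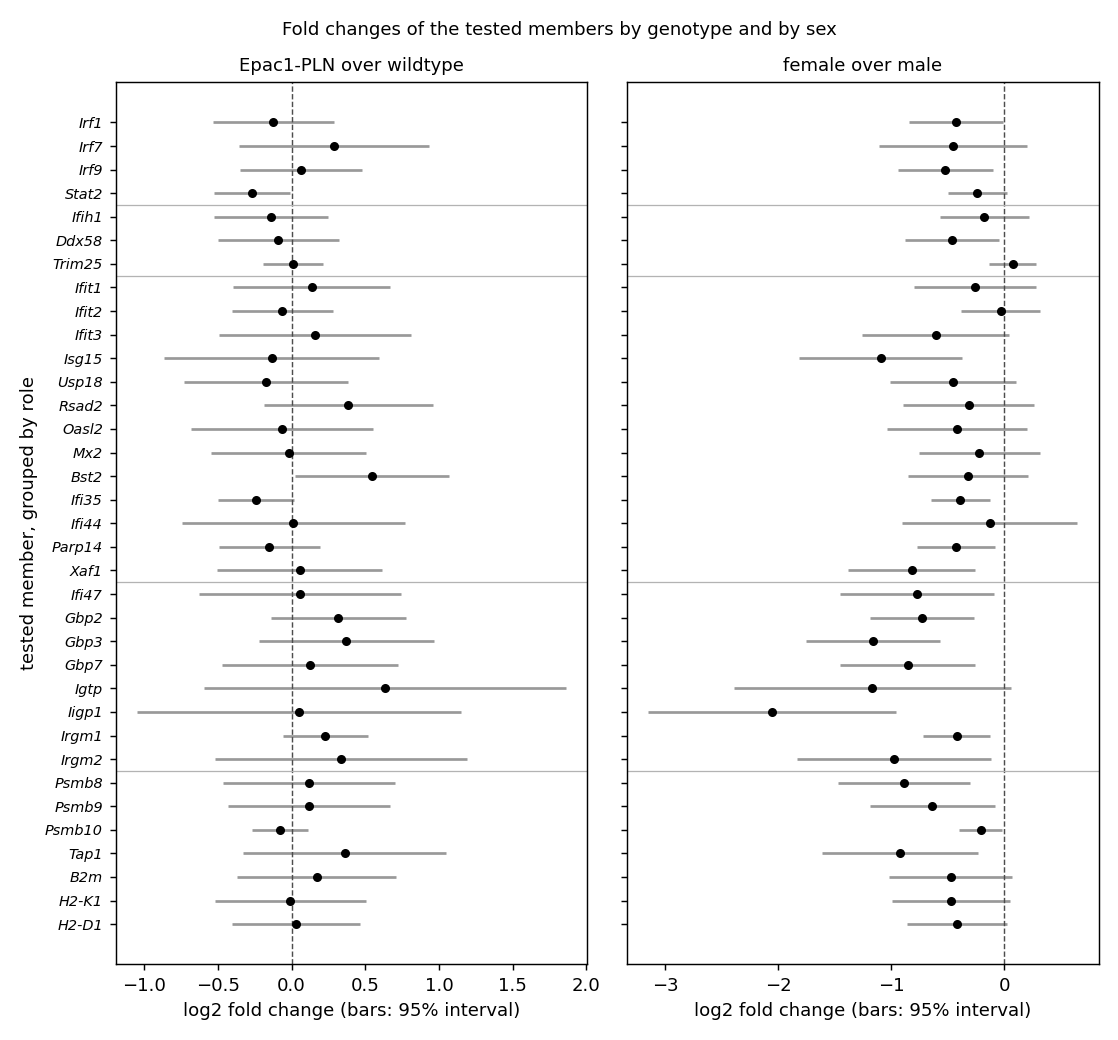
Points are log2 fold changes of the 35 tested members from the model with genotype and sex, with bars for the 95% interval, Epac1-PLN over wildtype on the left and female over male on the right. On the left 22 points lie above 0 and 13 below, and on the right 34 of 35 lie below 0.

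The promoters of 6 members are shown because these had a motif and the smallest sex p, first within each role group and then over all. RefSeq windows were found for 32 of the 37 members. The ISRE core was present for 16 of these 32 genes, against 3.99% of all genes with a window, and the GAS for 9, against 9.55%. Among the GTPases 6 of 7 genes had the ISRE core, among the immunoproteasome and MHC class I genes 1 of 7, and among the transcription factors 1 of 4. Capitals mark ISRE core matches (on either strand, adjoining matches merged) in Gbp3, Isg15, Ddx58 and Gbp2, and the GAS match in Psmb8 and Irf1.
Gbp3, chr3:142559794-142560093, plus strand: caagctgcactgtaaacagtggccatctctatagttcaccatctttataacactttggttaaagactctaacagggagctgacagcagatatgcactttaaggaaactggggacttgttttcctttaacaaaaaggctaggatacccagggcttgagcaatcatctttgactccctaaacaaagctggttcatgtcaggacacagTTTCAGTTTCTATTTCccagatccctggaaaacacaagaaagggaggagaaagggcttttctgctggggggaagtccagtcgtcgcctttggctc
Gbp2, chr3:142620413-142620712, plus strand: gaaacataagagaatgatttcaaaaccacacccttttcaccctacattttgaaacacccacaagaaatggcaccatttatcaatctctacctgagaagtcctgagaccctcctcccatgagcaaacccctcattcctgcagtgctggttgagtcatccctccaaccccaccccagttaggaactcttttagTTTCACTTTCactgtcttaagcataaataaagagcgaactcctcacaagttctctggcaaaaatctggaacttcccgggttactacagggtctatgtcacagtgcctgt
Isg15, chr4:156200769-156201068, minus strand: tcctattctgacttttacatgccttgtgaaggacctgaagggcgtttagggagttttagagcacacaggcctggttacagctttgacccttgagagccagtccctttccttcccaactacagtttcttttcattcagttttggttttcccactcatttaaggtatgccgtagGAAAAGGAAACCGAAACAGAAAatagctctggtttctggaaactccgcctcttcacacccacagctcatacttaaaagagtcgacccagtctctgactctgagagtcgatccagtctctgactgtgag
Ddx58, chr4:40239776-40240075, minus strand: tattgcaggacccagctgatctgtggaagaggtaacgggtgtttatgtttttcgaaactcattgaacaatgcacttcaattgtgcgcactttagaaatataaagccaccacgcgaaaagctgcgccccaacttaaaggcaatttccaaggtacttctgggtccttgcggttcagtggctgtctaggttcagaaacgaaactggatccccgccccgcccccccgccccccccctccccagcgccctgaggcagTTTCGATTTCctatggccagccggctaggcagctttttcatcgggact
Psmb8, chr17:34197945-34198244, plus strand: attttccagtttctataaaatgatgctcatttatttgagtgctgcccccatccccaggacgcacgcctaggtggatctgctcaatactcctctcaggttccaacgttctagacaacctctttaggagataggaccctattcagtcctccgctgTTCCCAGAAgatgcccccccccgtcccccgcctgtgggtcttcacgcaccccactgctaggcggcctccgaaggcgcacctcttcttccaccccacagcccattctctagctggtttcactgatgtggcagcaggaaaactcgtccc
Irf1, chr11:53769764-53770063, plus strand: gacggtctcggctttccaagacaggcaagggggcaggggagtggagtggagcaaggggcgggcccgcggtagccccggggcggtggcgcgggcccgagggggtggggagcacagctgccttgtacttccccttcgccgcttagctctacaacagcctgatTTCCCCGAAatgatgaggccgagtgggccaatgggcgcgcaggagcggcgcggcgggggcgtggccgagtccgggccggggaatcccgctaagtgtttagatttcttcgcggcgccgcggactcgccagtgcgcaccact
The Isg15 window held 3 overlapping ISRE core matches and the Gbp3 window 2, while Gbp2 and Ddx58 held 1 each. The windows of Irf1 and Psmb8 held a GAS match and no ISRE core.

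The rest of the pathway was followed in lists of other genes, chosen for their known roles. Of the 10 listed interferon genes, 9 were at 0 counts in all libraries, and Ifng, the gene for interferon gamma, had 1 count in Epac1-PLN replicate 2 and 1 in wildtype replicate 1. A count of 0 allows up to 3 counts, or 0.143 to 0.278 CPM per library. Interferon gamma mRNA was therefore not detectable at this depth in Epac1-PLN replicate 5. Interferons are secreted, and whether the cells had met interferon before isolation was not tested. The 6 receptor genes had 0 called members with genotype or sex. Of these, Ifnlr1, a chain of the type III receptor, had a genotype fold change of 0.28 ± 0.17, and Ifngr2, a chain of the interferon gamma receptor, a sex fold change of -0.16 ± 0.07 on the log2 scale (adjusted p = 0.554 and 0.458, edgeR).

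Of the 11 tested JAK-STAT genes 0 were called with genotype or sex. Ptpn11, a tyrosine phosphatase, had the smallest genotype p (0.36 ± 0.10, adjusted p = 0.125, edgeR) and Pias1, a STAT inhibitor, the smallest sex p (0.22 ± 0.10, adjusted p = 0.448, edgeR). The 10 tested genes that sense nucleic acids upstream of interferon had 0 called members. Mavs, the adaptor of RIG-I and MDA5, had a genotype fold change of 0.24 ± 0.10 and Ticam1, an adaptor of TLR3, a sex fold change of 0.27 ± 0.10 (adjusted p = 0.316 and 0.389, edgeR).

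Of 32 other tested interferon-stimulated genes, 28 lay lower in females with a median log2 fold change of -0.30, against 6058 of all 12629 tested genes. At an unadjusted p under 0.05, 13 were lower in females, against 4.34% of all tested genes. With sex or genotype 0 of the 32 were called, against 0.34% and 0.641%. Parp9 had the smallest sex p (15.3 ± 2.08 CPM in females and 20.2 ± 1.74 CPM in males, -0.41 ± 0.09 SE, adjusted p = 0.128, edgeR). Its relative Parp12 had the smallest genotype p (-0.33 ± 0.09, adjusted p = 0.122, edgeR). Epac1-PLN replicate 5 was highest for 8 of the 32, led by the GTPase gene Tgtp2 at 5.39 times the median of the others. Epac1-PLN replicate 4 was highest for 11, led by Herc6 at 2.04 times. Among all tested genes these libraries were highest for 8.38% and 19.3%. Tgtp2, Herc6 and, below, Nlrc5 were picked out after their values were seen.

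Of 17 other class I presentation genes 0 were called. Against 8.38% of all tested genes, 9 of the 17 were highest in Epac1-PLN replicate 5. Nlrc5, the transactivator of MHC class I genes, led them at 6.41 CPM there, against 1.16 to 1.48 CPM in the other Epac1-PLN libraries and 0.873 to 2.45 CPM in wildtype libraries. Psme1, a subunit of the proteasome activator PA28, had the smallest p for both genotype (-0.19 ± 0.06, adjusted p = 0.193, edgeR) and sex (-0.20 ± 0.06, adjusted p = 0.272, edgeR). The constitutive proteasome subunits that the immunoproteasome replaces, Psmb5, Psmb6 and Psmb7, stood in Epac1-PLN replicate 5 at 1.06 times the other libraries or less. Psmb7 had fold changes of -0.12 ± 0.07 with genotype and -0.09 ± 0.07 with sex (adjusted p = 0.488 and 0.669, edgeR).

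All 5 tested MHC class II genes were highest in Epac1-PLN replicate 5, against 8.38% of all tested genes. Professional antigen-presenting cells express these genes, and interferon gamma can induce them elsewhere. H2-Ab1 stood at 4.17, 3.22, 3.85, 2.40 and 13.0 CPM in Epac1-PLN replicates 1 to 5, against 6.47, 5.95, 1.26, 3.50 and 5.16 CPM in wildtype replicates 1 to 5. It also had the smallest sex p of the list (-1.20 ± 0.37, adjusted p = 0.312, edgeR), and H2-DMa the smallest genotype p (0.75 ± 0.30, adjusted p = 0.317, edgeR). None of the class II genes was called with genotype or sex (0 of 5).

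Markers of other cells moved with some of these libraries. Among all 12629 tested genes, 8.38% were highest in Epac1-PLN replicate 5, 19.3% in replicate 4, and 6058 lay lower in females. These shares stand beside the marker counts below. The 18 macrophage and leukocyte markers summed to 69.5, 53.0, 49.6, 102 and 94.7 CPM in Epac1-PLN replicates 1 to 5, against 73.0, 74.1, 40.9, 67.1 and 80.0 CPM in wildtype replicates 1 to 5, with none at 0 in any library. Of the 17 tested, 8 were highest in Epac1-PLN replicate 5 and 7 in replicate 4, with median ratios to the other 9 libraries of 1.78 and 1.498, and 15 lay lower in females. The summed level ranged over 40.9 to 102 CPM in females and 69.5 to 94.7 CPM in males. Endothelial markers were highest in Epac1-PLN replicate 4 for 11 of 15 and in replicate 5 for 2 of 15, with summed levels of 857 to 1775 CPM in Epac1-PLN mice, against 950.0 to 1528 CPM in wildtype mice. Of these, 14 of 15 lay lower in females, at summed levels of 857 to 1775 CPM in females and 1180.0 to 1528 CPM in males. The genotypes differed in this. In Epac1-PLN mice the sums were 857, 1166 and 1775 CPM in females and 1180.0 and 1216 CPM in males. In wildtype mice they were 1103, 950.0 and 980 CPM in females and 1381 and 1528 CPM in males. The genotype-by-sex term was above 0 for 15 of 15, against 6214 of all 12629 tested genes, with 0 called. The part of these cells in the results was not tested.

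Lymphocytes and natural killer cells left little RNA. Their 14 markers summed to 0.385 to 1.47 CPM in Epac1-PLN mice, against 0.971 to 1.31 CPM in wildtype mice, at 0.916 CPM in Epac1-PLN replicate 5 with 7 of the 14 at 0 counts, and 0 passed the filter. The 8 neutrophil markers summed to 0.0667 to 1.42 CPM and 0.238 to 1.04 CPM in Epac1-PLN and wildtype cells, with Mpo, Elane and Ly6g at 0 in all libraries. Fibroblast markers summed to 587 to 854 CPM in Epac1-PLN mice, against 567 to 909 CPM in wildtype mice, and 0 of 12 were highest in Epac1-PLN replicate 5 and 8 of 12 in replicate 4, with a median ratio there of 1.29. Of the fibroblast markers 9 of 12 lay lower in females and 1 was called (adjusted p = 0.00967, edgeR), at summed levels of 567 to 819 CPM in females and 670 to 909 CPM in males. Smooth muscle and pericyte markers summed to 1288 to 1523 and 1157 to 1571 CPM, and erythroid markers to 6.25 to 44.0 and 5.402 to 44.8 CPM, in Epac1-PLN and wildtype cells.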

How the data were processed

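The authors deposited raw counts of reads for each Ensembl gene in 10 RNA sequencing libraries. Per the submitters' processing notes, the tools were STAR 2.3.0, HTSeq 0.5.4, DESeq2, DESeq, FastQC 0.10.0 and CASAVA 1.8.2, on mm10. Settings, not given in the sources used here, could not be checked. Coordinates are those of the deposited table. A second deposited table, of normalised values, was not used.

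Genes passing filterByExpr of edgeR 4.0.16 on genotype were scaled by TMM factors and tested by robust quasi-likelihood fits (R 4.3.3) of a model of sex plus genotype, with a genotype-by-sex term added for its own test. Benjamini-Hochberg adjustment ran over all tested genes. Levels are CPM with TMM factors, and log2 CPM has a prior count of 2. Standard errors are the absolute log2 fold change over the square root of F. DESeq2 1.42.0 and limma 3.58.1 were alternatives. The tests were checked on simulated counts. No libraries of 1 genotype were as close as sampling noise (chi-square over its degrees of freedom, 8.08 to 32.9 in 20 pairs). Counting floors cover counting error only. The labels call the libraries biological replicates.

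Fold changes were printed, per role group, for the 2 members with the smallest genotype p and the 3 with the smallest sex p, for the 3 with the smallest genotype-by-sex p, and for 1 gene per pathway list and comparison. The members, lists and rules were chosen with earlier results of these data known. Igtp and Irgm2 promoters, and the alternative without Epac1-PLN replicates 4 and 5, were added after the levels were seen. Promoters are from RefSeq on GRCm38.p6. The values of 1 gene of the pathway lists are not reported here.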

Additional observations from a re-analysis of the deposited data

Results flagged for a closer look

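In 70 groups of 5 libraries, 6 had a highest library whose gap to the next, as a share of the group's whole range of log2 CPM, passed 0.71. Chance flags at most about 1 in 20 separate groups. These groups share libraries and hold members that move together, so 6 of 70 cannot be set against that rate. In Epac1-PLN cells the highest library of a flagged group was replicate 5 each time, with shares of 0.887 for Igtp, 0.809 for Ifi35, 0.805 for Irf9 and 0.752 for Irgm2. In wildtype cells the share was 0.790 for Igtp, at replicate 1, and 0.739 for Irf7, at replicate 2. The wildtype gap of Igtp was small, at 20.8 against 16.4 CPM for the next library.

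The genotype-by-sex terms with the smallest p were those of Irgm2 (-1.39 ± 0.60 SE), Igtp (-1.83 ± 0.86) and Irgm1 (-0.48 ± 0.24), with an adjusted p of 0.993 each by edgeR. Without Epac1-PLN replicate 1, which left replicate 5 as the sole Epac1-PLN male, the terms were -2.59, -2.02 and -0.76 for Igtp, Irgm2 and Irgm1. Without replicate 5, which left replicate 1 as the sole Epac1-PLN male, they were -0.03, -0.16 and -0.11.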

How the results depend on the processing

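With genotype, 81 genes were called, and 498 without a count filter, 265 by DESeq2, 37 without the sex term, 4 in females alone, 13 in males alone and 14 to 103 when each library was left out. Called members were 2 without a filter (Bst2 and Igtp), 1 without Epac1-PLN replicates 4 and 5 (H2-K1) and 0 to 0 when each library was left out. With sex, 43 genes were called, and 521 without a filter, 159 by DESeq2, 1 in Epac1-PLN and 134 in wildtype libraries alone, 334 without Epac1-PLN replicates 4 and 5 and 18 to 93 when each library was left out. Called members were 18, 3, 2 and 7 without a filter, by DESeq2, in wildtype libraries alone and without replicates 4 and 5, and 0 to 3 when each library was left out. The genotype-by-sex term gave 164 genes and 3 members without a filter, 1 gene by DESeq2, and 0 to 6 genes and 0 to 2 members when each library was left out. The cause of the larger counts without a filter was not tested. With a replicate block, 2 genes were called with genotype and 3 with sex, and 0 members. In a check for pairing, same-numbered libraries correlated at -0.30 to 0.35, by another measure than the rank correlation of levels given above. Numbers 2 and 5 join a male and a female, so these values cannot show whether the numbers pair the animals. The labels do not say. The direction reversed for Ddx58 with genotype in females alone (0.0096), and without replicates 4 and 5 for Irf7 (-0.10), Gbp2 (-0.0080) and Tap1 (-0.33). With each library left out, genotype fold changes spanned 0 for Ddx58 (-0.25 to 0.0036), Irf7 (-0.074 to 0.46) and Tap1 (-0.013 to 0.54), and the sex fold change for Trim25 (-0.0089 to 0.13). Over 21 alternatives, 30 to 35 members lay lower in females. With 2 males per genotype, sex within a genotype rests on 5 libraries.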
